A study of Homo sapiens with 4 samples.

Results

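The genes described here encode NRF2-inducible antioxidant enzymes and aldo-keto reductases, and were taken by symbol: AKR1B10, AKR1C1, AKR1C2, AKR1C3, NQO1, HMOX1, GCLM, GCLC, TXNRD1 and SRXN1. All 10 had a value, out of 18377 genes with a named probe, and each was read by 1 probe set. They were measured in Huh7, an established human hepatocellular carcinoma line, after flow cytometry into CD133+ and CD133- cells in one sort and into ALDH+ and ALDH- cells in another. CD133 is the surface protein encoded by PROM1, and the ALDH sort is named for aldehyde dehydrogenase; the labels name no treatment and do not say whether the fractions came from separate cultures. With 1 array for each fraction, no difference has a replicate check or a p-value, and each is given as the log2 value of the positive minus that of the negative fraction.

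NRF2, the product of NFE2L2, is a transcription factor that is held down by the adaptor KEAP1 in unstressed cells and accumulates when electrophiles or oxidants modify KEAP1. It binds antioxidant response elements together with small MAF proteins and raises genes for glutathione synthesis, thioredoxin reduction, quinone reduction, haem breakdown and aldehyde reduction. Some liver cancers carry mutations that keep this programme on, and AKR1B10 is known for its raised expression in hepatocellular carcinoma. Aldo-keto reductases reduce carbonyl groups with NADPH, including those of reactive aldehydes and of steroids.

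The arrays had median log2 values of 4.99 in CD133+, 4.92 in CD133-, 5.04 in ALDH+ and 4.98 in ALDH- cells. PROM1 followed the labels of the CD133 sort, at 9.0 in CD133+ and 5.32 in CD133- cells, and was lower in ALDH+ (7.11) than in ALDH- cells (8.39). ALDH1A1 differed by -0.00 between CD133+ and CD133- and by 0.04 between ALDH+ and ALDH- cells, so this transcript does not check the ALDH labels. All 8 measured hepatocyte or hepatoma markers, ALB and AFP among them, reached the expression floor on every array, that is 4.98, the median of all values in the table. Of 5 measured leukocyte markers, PTPRC and CD3E lay below the floor on every array, while CD14, CD68 and LYZ lay above it; LYZ was at 7.77 in ALDH+ and 6.44 in ALDH- cells, and at 7.52 in CD133+ and 8.22 in CD133- cells. Of 5 fibroblast and stellate markers 3 reached the floor on every array. Of 4 endothelial markers, PECAM1 and CDH5 reached it in ALDH- cells and none did on the other arrays, and neither of 2 measured red cell markers reached it. The part of these markers in the differences below was not tested.

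AKR1B10, a reductase of retinal and of aliphatic aldehydes, was the one member of the 10 that reached a 2-fold difference, and it did so in opposite directions in the sorts. Its log2 level was 6.70 in CD133+ and 5.38 in CD133- cells, and 5.12 in ALDH+ and 6.32 in ALDH- cells. The CD133+ and ALDH- arrays were therefore the high ones and the CD133- and ALDH+ arrays the low ones. The differences were 1.32 in the CD133 sort, or 2.5-fold higher in CD133+ cells, and -1.20 in the ALDH sort, or 2.3-fold lower in ALDH+ cells. All 4 values were above the floor of 4.98, but the low ones, 5.38 in CD133- and 5.12 in ALDH+ cells, lay near it. The values come from 1 probe set. AKR1B1 and AKR1B15, of the same family by name, had no value here, so signal shared with them was not tested. In bulk RNA of a fraction, fewer cells with a transcript and less of it per cell cannot be told apart.

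At 2-fold, 1 of the 10 genes was higher in CD133+ cells, beside 0.716 percent of the 11591 genes above the floor in that sort, and 0 were lower, beside 0.164 percent. In ALDH+ cells 0 of the 10 were higher, beside 0.278 percent of 11879 genes, and 1 was lower, beside 1.3 percent. AKR1B10 supplied both counts. At 1.5-fold the counts for CD133+ cells were 1 higher and 0 lower, beside 2.74 and 1.89 percent of all genes, and those for ALDH+ cells 0 higher and 2 lower, beside 4.15 and 6.6 percent. Its differences were large for these arrays: counting both directions, 0.38 percent of genes differed by as much between the CD133 fractions and 0.673 percent between the ALDH fractions. Both sorts had 11293 genes above the floor in common, and 0.416 percent of these passed 2-fold upward in CD133+ and downward in ALDH+ cells, AKR1B10 and PROM1 among them.

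**Figure D1:**
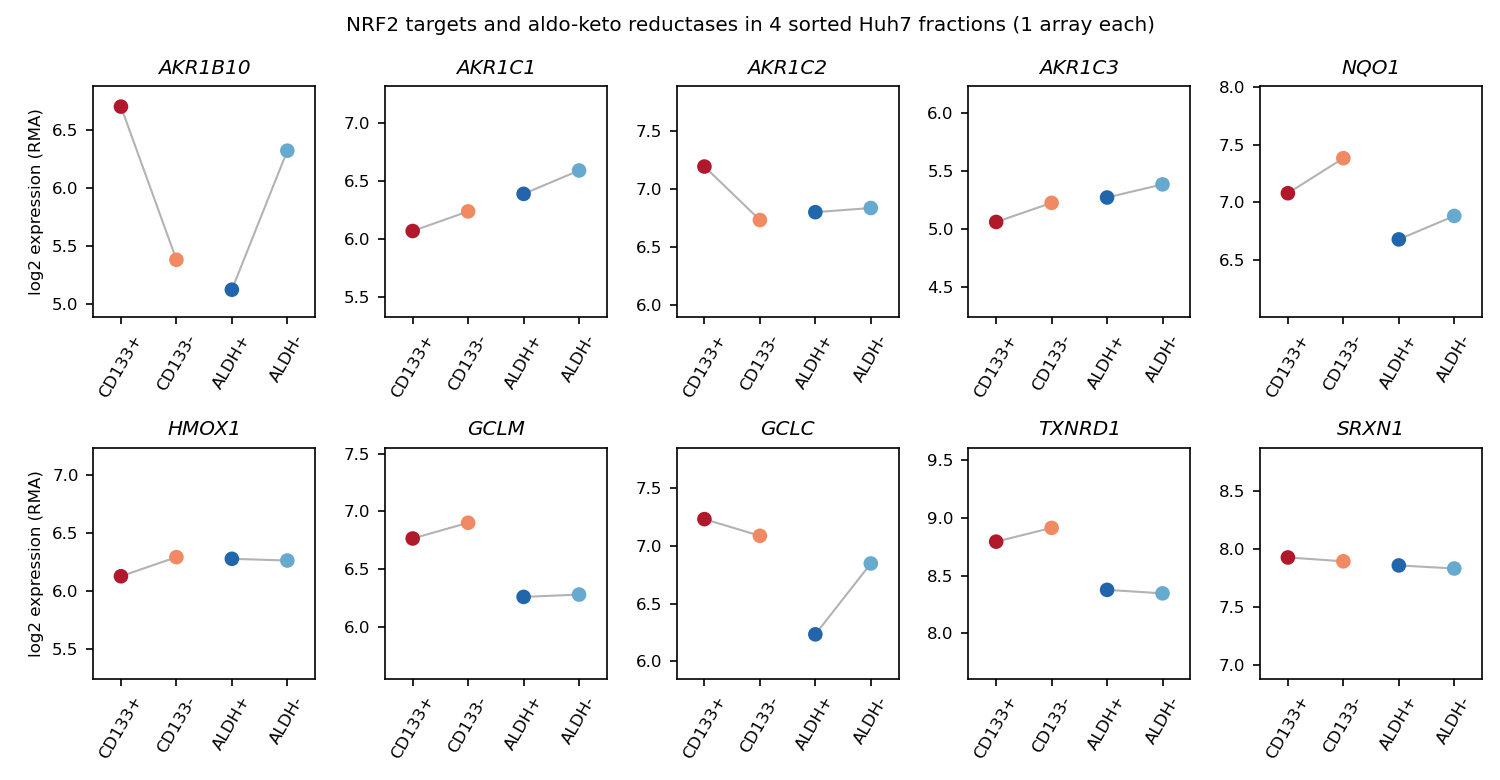
Log2 expression (RMA) of the 10 genes, a panel for each gene and a point for each array, with CD133+, CD133-, ALDH+ and ALDH- cells from left to right and a line joining the fractions of a sort. Every vertical axis spans the same number of log2 units, so slopes can be compared between panels: AKR1B10 has the steepest lines, while SRXN1 lies between 7.83 and 7.93 on all 4 arrays.

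Without AKR1B10, the largest difference was 0.46 in the CD133 sort (AKR1C2) and -0.61 in the ALDH sort (GCLC). The median difference of the 10 genes was -0.13 in the CD133 sort, where 4 were higher and 6 lower in CD133+ cells. The median of all genes above the floor was -0.04 there, and 42.9 percent of them were higher and 57.1 percent lower. In the ALDH sort the median of the 10 genes was -0.07, beside -0.01 for all genes. There 3 of the 10 were higher and 7 lower in ALDH+ cells, where 48.5 percent of all genes were higher and 51.5 percent lower, but 5 of the 10 differences were under 0.04 in size and changed sign with the scaling of the arrays. The signs in the sorts were opposite in 5 of the 10 genes, beside 48.5 percent of all genes.

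**Figure D2:**
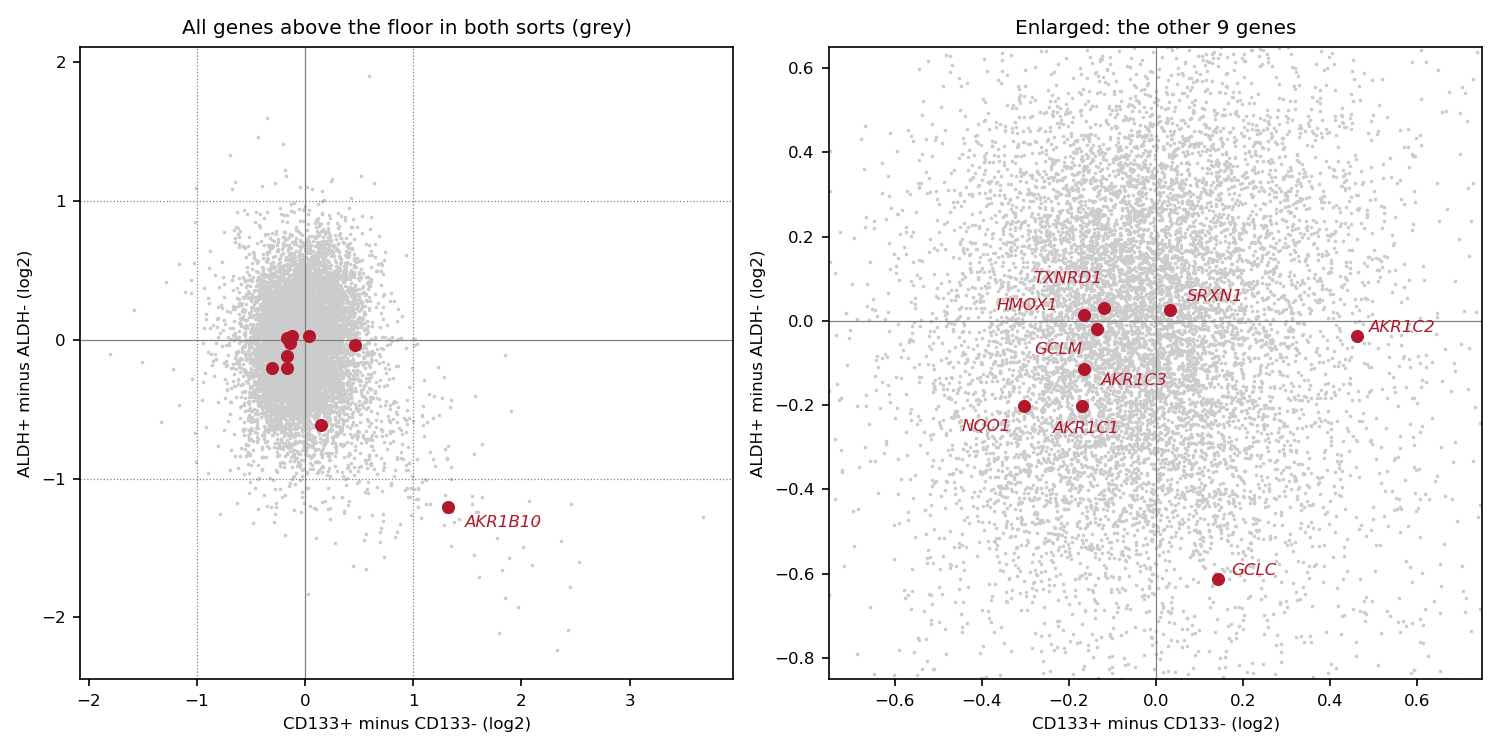
Difference in the CD133 sort (horizontal, log2 of CD133+ minus CD133-) against that in the ALDH sort (vertical, log2 of ALDH+ minus ALDH-) for the 11293 genes that passed the floor in both pairs of arrays (grey) and the 10 genes (red), with dotted lines at 2-fold and the centre enlarged on the right. AKR1B10, at 1.32 and -1.20, lies away from the grey mass, and the other 9 genes lie within it.

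The AKR1C enzymes reduce ketosteroids, prostaglandins and reactive aldehydes, and AKR1C3 is known for making testosterone from androstenedione. Their genes lie side by side on chromosome 10, in the order AKR1C1, AKR1C2, AKR1C3, but did not share the pattern of AKR1B10. AKR1C2 had log2 levels of 7.20 in CD133+ and 6.73 in CD133- cells, and of 6.80 in ALDH+ and 6.84 in ALDH- cells. It was 1.38-fold higher in CD133+ cells, a difference that 9.18 percent of all genes matched or exceeded in size, and the remaining 3 arrays lay close together. AKR1C1 had 6.07 in CD133+ and 6.24 in CD133- cells, and 6.39 in ALDH+ and 6.59 in ALDH- cells. AKR1C3 was at 5.06 in CD133+ and 5.23 in CD133- cells, and at 5.27 in ALDH+ and 5.39 in ALDH- cells. AKR1C1 and AKR1C3 thus had the same order over the arrays as deposited, lowest in CD133+ and highest in ALDH- cells, with CD133 differences of -0.17 and -0.16 and ALDH differences of -0.20 and -0.11; 49.2 to 73.6 percent of all genes differed by as much. These genes are close paralogs whose probes can share signal, so their single values are uncertain. The annotation ties the AKR1C1 probe set to 1 cDNA record and 0 RefSeq transcripts, and the AKR1C2 and AKR1C3 probe sets to 2 RefSeq transcripts each. AKR1C3 lay near the floor on every array.

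The similarity of these genes extends to their promoters, shown here for 140 bases, 130 before the annotated start and the first 10 of the transcript (RefSeq, GRCh38.p14), with AKR1C1 at chr10:4963285-4963424 on the plus strand, AKR1C2 at chr10:5003848-5003987 on the minus strand and the AKR1C3 start that lies farther along the chromosome at chr10:5094284-5094423 on the plus strand. Capitals mark matches to TGACNNNGC or TGAGNNNGC, the core letters of the antioxidant response element, on either strand.
AKR1C1: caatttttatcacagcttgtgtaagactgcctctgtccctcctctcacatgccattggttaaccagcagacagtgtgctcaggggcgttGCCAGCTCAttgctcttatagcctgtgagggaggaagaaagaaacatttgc
AKR1C2: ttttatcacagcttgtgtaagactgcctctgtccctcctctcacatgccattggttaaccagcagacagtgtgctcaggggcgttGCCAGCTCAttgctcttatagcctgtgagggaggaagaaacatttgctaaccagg
AKR1C3: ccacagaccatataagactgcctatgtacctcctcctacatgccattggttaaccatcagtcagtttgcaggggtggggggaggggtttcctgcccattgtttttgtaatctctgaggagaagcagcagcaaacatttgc
The windows of 250 bases before to 50 after the start were compared in the best ungapped alignment. AKR1C1 and AKR1C2 were identical at 264 of 296 bases, and AKR1C1 and this AKR1C3 window at 157 of 291. An ungapped alignment takes no account of inserted or lost bases, so it can understate similarity. The one match in AKR1C1 and in AKR1C2, TGAGCTGGC on the strand opposite to the gene, is the same in both. In the CD133 sort AKR1C1 and AKR1C2 differed by -0.17 and 0.46, and whether the promoters bear on this was not tested.

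NQO1, the quinone reductase that is the standard readout of NRF2 activity, was lower in both positive fractions. Its log2 level was 7.08 in CD133+ and 7.38 in CD133- cells, and 6.68 in ALDH+ and 6.88 in ALDH- cells. The differences of -0.30 and -0.20 were 1.23-fold and 1.15-fold, sizes that 24.4 and 55.2 percent of all genes reached. HMOX1, the inducible haem oxygenase, varied little, with 6.13 in CD133+ and 6.29 in CD133- cells and 6.28 in ALDH+ and 6.26 in ALDH- cells. Its whole range over the 4 arrays was 0.17.

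GCLC and GCLM encode the catalytic and the modifier subunit of glutamate-cysteine ligase, the rate-limiting enzyme of glutathione synthesis, and they differed from each other in the ALDH sort. GCLC was at 7.23 in CD133+ and 7.09 in CD133- cells, and at 6.23 in ALDH+ and 6.85 in ALDH- cells. The ALDH+ array stood apart as the low one, 1.53-fold below ALDH- cells; 9.54 percent of all genes differed by as much in that sort. With AKR1B10 it made up the 2 genes at 1.5-fold lower in ALDH+ cells. GCLM was at 6.77 in CD133+ and 6.90 in CD133- cells, and at 6.26 in ALDH+ and 6.28 in ALDH- cells. Its differences were -0.14 and -0.02, the last of which turned to 0.04 after a second quantile normalization.

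TXNRD1, the cytosolic thioredoxin reductase, and SRXN1, the sulfiredoxin that repairs over-oxidised peroxiredoxins, differed little within either sort. TXNRD1 was at 8.79 in CD133+ and 8.91 in CD133- cells, and at 8.38 in ALDH+ and 8.35 in ALDH- cells. SRXN1 was at 7.93 in CD133+ and 7.89 in CD133- cells, and at 7.86 in ALDH+ and 7.83 in ALDH- cells. The differences were -0.12 and 0.03 for TXNRD1 and 0.03 in both sorts for SRXN1, and 62.7 to 93.5 percent of all genes differed by as much or more. The sign of the ALDH difference of both genes, and of the CD133 difference of SRXN1, turned when the arrays were centred on their medians.

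RefSeq promoter windows were found for 8 of the 10 genes, 10 windows in all. None was found for AKR1B10 and HMOX1, so these were not searched for matches. GCLM, TXNRD1 and NQO1 are shown because they include the stretches with a match outside the AKR1C genes. They are GCLM at chr1:93909421-93909560 on the minus strand, the TXNRD1 start that lies farther along the chromosome at chr12:104286902-104287041 on the plus strand and NQO1 at chr16:69726551-69726690 on the minus strand, with capitals as above.
GCLM: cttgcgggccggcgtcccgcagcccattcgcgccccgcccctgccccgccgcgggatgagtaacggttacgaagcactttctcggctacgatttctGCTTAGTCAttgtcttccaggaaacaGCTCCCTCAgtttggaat
TXNRD1: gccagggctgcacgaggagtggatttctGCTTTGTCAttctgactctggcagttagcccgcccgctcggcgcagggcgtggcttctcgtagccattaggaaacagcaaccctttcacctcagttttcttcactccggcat
NQO1: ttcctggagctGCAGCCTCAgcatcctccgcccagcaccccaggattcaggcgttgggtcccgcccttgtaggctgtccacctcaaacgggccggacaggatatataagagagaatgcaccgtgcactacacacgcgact
GCLM held TGACTAAGC on the opposite strand, 34 to 26 bases before the start, and TXNRD1 held TGACAAAGC on the opposite strand, 102 to 94 bases before it. The motif TGACNNNGC was present in 3 of the 10 windows, from 2 genes, and in 13.3 percent of 35116 windows of all genes. TGAGNNNGC was in 5 of the 10, among them the similar AKR1C1 and AKR1C2 windows, and in 18.3 percent. These are letter matches in a short window, and elements farther from the start were not searched. The other TXNRD1 window, not shown, also holds TGACNNNGC. GCLM and TXNRD1, whose windows hold TGACNNNGC, had the small within-sort differences given above. Whether the matches bear on these levels was not tested.

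Several of the 10 genes differed more between the sorts than within them, a comparison added after the values were seen. GCLM averaged 6.83 over the CD133-sort arrays and 6.27 over the ALDH-sort arrays. The corresponding means were 8.85 and 8.36 for TXNRD1, 7.23 and 6.78 for NQO1, and 7.16 and 6.54 for GCLC. In these 4 genes, and narrowly in SRXN1, both CD133-sort arrays lay above both ALDH-sort arrays; SRXN1 lost this after a second quantile normalization. That makes 5 of 10 genes, where 30.2 percent of 12177 genes did so. The reverse order held for AKR1C1 and AKR1C3, 2 of 10 genes beside 15.1 percent of all, and AKR1C3 lost it when the arrays were centred or quantile normalized again. The difference between the sort means exceeded both within-sort differences in 7 of the 10 genes and in 32.2 percent of all genes. The median shift between the sorts was 0.23 over the 10 genes and 0.05 over all genes. The sort, the culture, the RNA preparation and the hybridisation cannot be told apart in this comparison.

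NFE2L2 itself had log2 levels of 9.20 in CD133+ and 9.34 in CD133- cells, and of 9.20 in ALDH+ and 9.49 in ALDH- cells. KEAP1 was at 7.03 in CD133+ and 7.26 in CD133- cells, and at 7.09 in ALDH+ and 6.72 in ALDH- cells. The NFE2L2 transcript was thus lower in both positive fractions, by 0.14 and 0.29 as log2 differences, and KEAP1 lower in CD133+ and higher in ALDH+ cells. The middle 68 percent of genes above the floor ran from -0.27 to 0.22 in the CD133 sort. In the ALDH sort they ran from -0.37 to 0.32. Of the NFE2L2 and KEAP1 differences, only that of KEAP1 in the ALDH sort (0.37) lay outside these ranges. NRF2 protein was not measured. At 1.5-fold, 2.74 percent of all genes above the floor were higher and 1.89 percent lower in CD133+ cells. In ALDH+ cells 4.15 percent were higher and 6.6 percent lower. Beside these small shares, none of the 12 measured regulators reached 1.5-fold in either sort. The largest differences among them were those of BACH1, a repressor that competes for the same elements (-0.55 in the ALDH sort), and of the small MAF gene MAFF (-0.43 in the CD133 sort). MAFF lay below the floor in CD133+ cells, and set against the floor its CD133 difference was only -0.02.

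Other genes of the pathway were described by role, from lists of 90 genes of which 78 were measured and 72 lay above the floor in each sort. At 2-fold, 1 of them, GSTA2, was higher and 0 were lower in CD133+ cells. GSTA2 lay below the floor in CD133- cells, and set against the floor its CD133 difference was 0.62, short of 2-fold. In ALDH+ cells 0 passed 2-fold upward and 5 downward, in the detoxification and glutathione lists. The shares of all genes were 0.716 percent higher and 0.164 percent lower in CD133+ cells, and 0.278 percent higher and 1.3 percent lower in ALDH+ cells. The pooled medians were -0.00 and -0.11, beside -0.04 and -0.01 for all genes.

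The glutathione list had a median of 0.22 over 8 genes in the CD133 sort and one of -0.39 for ALDH, where 7 of the 8 were lower in ALDH+ cells, beside 51.5 percent of all genes. GPX2, an epithelial glutathione peroxidase, had 6.97 in CD133+ and 6.41 in CD133- cells, and 6.28 in ALDH+ and 7.68 in ALDH- cells. SLC7A11, the cystine importer that feeds glutathione synthesis, was at 7.004 in CD133+ and 7.11 in CD133- cells, and at 6.64 in ALDH+ and 7.87 in ALDH- cells. Both were lowest in ALDH+ cells and highest in ALDH- cells, with ALDH differences of -1.40 and -1.23. Their CD133 differences were 0.56 and -0.10.

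The detoxification list had a median of -0.00 over 23 genes in the CD133 sort and one of -0.25 for ALDH. At 2-fold, 1 of the 23 genes, GSTA2, was higher in CD133+ cells, beside 0.716 percent of all genes, and 3 were lower in ALDH+ cells, beside 1.3 percent. ABCG2, a drug efflux pump, was at 6.51 in CD133+ and 5.53 in CD133- cells, and at 5.61 in ALDH+ and 6.87 in ALDH- cells. ABCC2, the canalicular conjugate exporter, was at 7.83 in CD133+ and 7.14 in CD133- cells, and at 7.12 in ALDH+ and 8.58 in ALDH- cells. GSTA2, a glutathione transferase with close paralogs, lay below the floor in CD133- and in ALDH+ cells; set against the floor, its differences were 0.62, short of 2-fold, and -1.22. Like AKR1B10, these 3 genes were high in CD133+ and ALDH- cells, and they were the only ones of 72 pathway genes that were at least 1.5-fold higher in CD133+ and at least 1.5-fold lower in ALDH+ cells, a pattern of 1.23 percent of all genes. By any amount, 22 of the 72 genes (30.6 percent) ran that way, beside 21.9 percent of all genes.

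The remaining lists held no gene at 2-fold. Genes of thioredoxins and peroxiredoxins had medians of -0.02 and -0.07 in the CD133 and ALDH sorts over 8 genes, with the largest differences in the thioredoxin-binding protein TXNIP (0.56 in the CD133 sort) and the mitochondrial thioredoxin TXN2 (0.52 in the ALDH sort). Genes of NADPH supply had medians of 0.07 and -0.02 over 5 genes; malic enzyme ME1 differed by 0.46 and -0.46, the same signs as AKR1B10, and the pentose phosphate enzyme PGD by -0.09 and -0.14. Haem and iron genes had medians of 0.08 and -0.01 over 6 genes, led by the porphyrin transporter ABCB6 (-0.22 and -0.32) and ferritin light chain FTL (-0.24 and -0.13). Of 12 other aldo-keto reductase genes 8 were measured and 4 lay above the floor, with medians of 0.02 and 0.05; the aflatoxin aldehyde reductase AKR7A3 differed by 0.45 and 0.17 and the bile acid enzyme AKR1D1 by 0.06 and -0.12. Antioxidant enzymes outside the NRF2 lists had medians of -0.05 and 0.15 over 6 genes, and GPX1 (0.47 and 0.26) and the mitochondrial superoxide dismutase SOD2 (-0.13 and 0.29) differed most. Other scalings of the arrays turned the sign of 7 of the 16 list medians, each at most 0.05 in size. With a higher floor of 6.48, the 75th percentile, the CD133 median was -0.08 for haem and iron genes and 0.00 for NRF2 regulators, beside 0.08 and -0.11 with the floor used here.

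**Figure D3:**
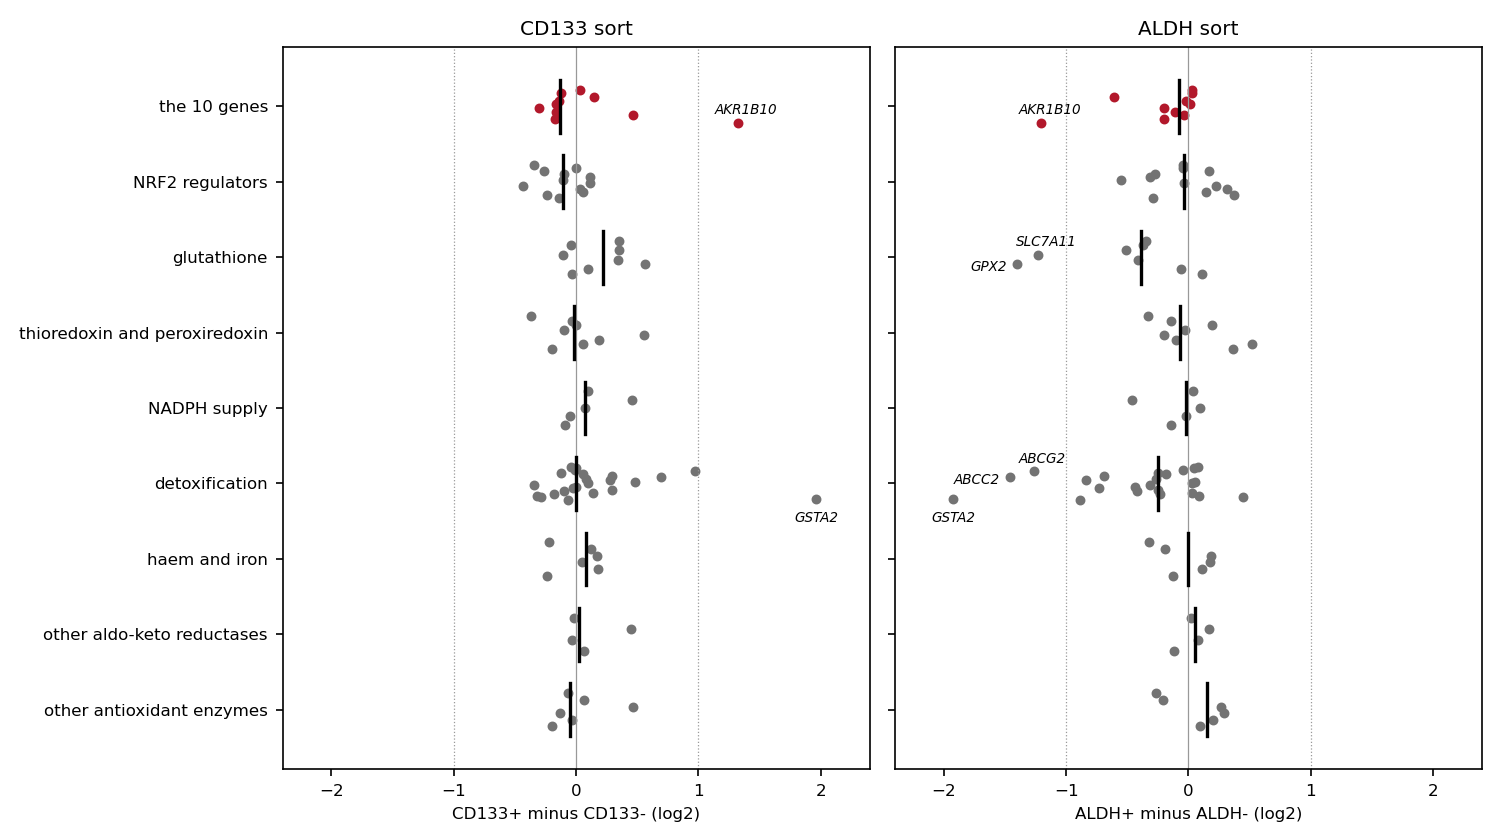
Differences (log2, positive minus negative fraction) of the 10 genes (red) and of the pathway lists (grey) in the CD133 sort on the left and the ALDH sort on the right, a point for each gene above the floor, a black bar at each list's median and dotted lines at 2-fold. Genes beyond 2-fold are named: AKR1B10 and GSTA2 in both panels, and GPX2, SLC7A11, ABCC2 and ABCG2 in the ALDH sort.

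The genes most like AKR1B10 were taken by the distance between pairs of differences, 1 difference from each sort, over the same 11293 genes. The nearest 5 were MGLL (a monoglyceride lipase, distance 0.05), UGT8 (a ceramide galactosyltransferase, 0.05), the long non-coding RNA UCA1 (0.05), the tetraspanin TSPAN8 (0.09) and PRR15L (0.12). MGLL had 7.10 in CD133+ and 5.81 in CD133- cells, and 6.499 in ALDH+ and 7.74 in ALDH- cells. TSPAN8 had 8.46 in CD133+ and 7.17 in CD133- cells, and 7.13 in ALDH+ and 8.26 in ALDH- cells. Only 8 genes lay within 0.2 of AKR1B10, and none of the other 9 genes described here was among the nearest 5. The other 9 lay in the crowd near the centre, with 321 genes within 0.2 of AKR1C2, 370 of GCLC and 1336 to 2716 of the rest. Their single nearest genes, at distances of 0.002 to 0.0226, included MELTF for AKR1C2 and ETV3 for GCLC, and carry little information there.

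**Figure D4:**
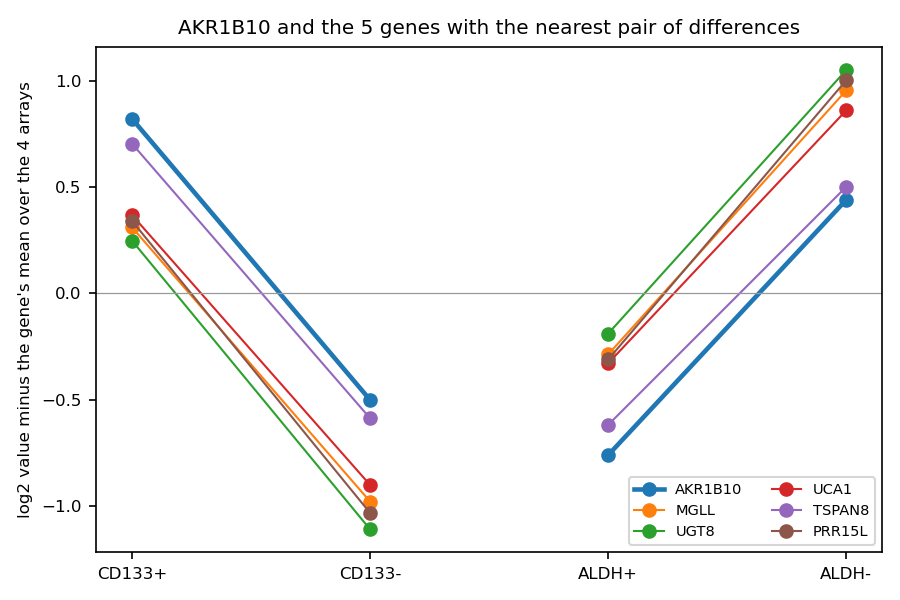
Log2 values of AKR1B10 (thick line) and of the 5 genes with the nearest pair of differences, each minus its own mean over the 4 arrays, with CD133+, CD133-, ALDH+ and ALDH- cells from left to right. All 6 genes are lower in CD133- than in CD133+ cells and lower in ALDH+ than in ALDH- cells. These shared directions follow from how the 5 genes were chosen. AKR1B10 is highest in CD133+ cells, while MGLL, UGT8, UCA1 and PRR15L are highest in ALDH- cells.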

How the data were processed

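RNA of 4 sorted Huh7 fractions was extracted with Trizol, labelled with biotin and hybridised to Affymetrix arrays, per the labels' protocols. RMA had been applied by the authors, per the submitters' processing notes, and the deposited numbers were taken as log2 from their range. The software version and genome build are not given in the sources used here. RMA pulls arrays towards 1 distribution and compresses differences of dim probes.

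Of 28869 probes, 19310 had exactly 1 gene symbol in the platform annotation, 1752 had several and 7807 were not listed; probes with several were not used. A gene's value was its probe with the highest mean, which gave 18377 genes. A gene counted in a sort where its brighter array reached the floor, the median of all values (4.98). No test was run because a fraction has 1 array and so no spread, and genes were counted at 2-fold instead. The code for differences was run on simulated data with large changes and little noise. That checks the code only, not the counts reported here. Pathway genes named in the text are those at 2-fold in either sort, or else the 2 with the largest difference in each list; NFE2L2 and KEAP1 were always named. The members and lists were chosen with earlier results of these data known. Promoter sequences are from RefSeq (GRCh38.p14). Python 3.11.15 was used.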

Additional observations from a re-analysis of the deposited data

How the results depend on the processing

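No paired analysis was possible because each fraction has 1 array, and no array could be left out for the same reason. For a value without replicates, a shift was counted as a change when it exceeded the half-width of the middle 68 percent of all genes' differences, 0.25 for CD133 and 0.34 for ALDH. AKR1B10 differed by 1.26 in the CD133 sort after centring and by 1.28 after a second quantile normalization, beside 1.32 in the main setting. In the ALDH sort the corresponding values were -1.26 and -1.25, beside -1.20. Only these scalings could move its differences. Taking the mean over probes, or each probe on its own, could not, because AKR1B10 was read by 1 probe set. Dropping the floor, or lifting lower values up to it, could not either, because AKR1B10 lay above 4.98 on all 4 arrays. A higher floor could only keep or remove the gene. The floor at the 75th percentile (6.48) removed AKR1B10 from the ALDH sort, leaving 0 of the 10 genes at 2-fold lower; it also left 3 with a negative CD133 difference, 4 with a negative ALDH difference, 3 with opposite signs in the sorts (5 in the main setting) and 1 gene with both CD133-sort arrays below both ALDH-sort arrays. At 1.5-fold, 2 of the 10 were lower in ALDH+ cells. With centring, 0 of the 10 had a positive ALDH difference and 3 had opposite signs, and after a second quantile normalization 5 had a positive ALDH difference; both left 1 gene, AKR1C1, with its CD133-sort arrays below. In the detoxification list, the genes at 2-fold higher in CD133+ cells became 0 with the higher floor and with values raised to the floor, and 3 at 1.5-fold, where 7 were lower in ALDH+ cells. The causes of these shifts in sign were not tested. The median of the 10 genes in the CD133 sort ranged from -0.20 with centring to 0.03 with the higher floor. The precision of every value is limited by 1 array per fraction.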

Other observations

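Besides ABCC2, ABCG2 and GSTA2, 4 more genes of the detoxification list were at least 1.5-fold lower in ALDH+ cells, named here after their values were seen. The glutathione transferase GSTA1 was at 6.29 in ALDH+ and 7.18 in ALDH- cells, and PTGR1, which inactivates leukotriene B4 and reduces alkenals, at 8.625 in ALDH+ and 9.46 in ALDH- cells. The microsomal transferase MGST1 was at 6.07 in ALDH+ and 6.81 in ALDH- cells, and the efflux transporter ABCC3 at 6.49 in ALDH+ and 7.18 in ALDH- cells. In the CD133 sort GSTA1 differed by -0.07, PTGR1 by 0.27, MGST1 by -0.03 and ABCC3 by 0.30. The 7 genes at 1.5-fold were 7 of 23 in the list, beside 6.6 percent of all genes. The probes of GSTA1 can share signal with those of its close paralogs.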
